A study of Sus scrofa with 2 samples.

Results

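PDK4 (ENSSSCG00000015334), UCP3 (ENSSSCG00000014834) and CPT1A (ENSSSCG00000012880) are 3 genes of fuel choice in muscle, described here in the back muscle of pigs kept warm or hot. They were taken by symbol from a table of 27987 entries, of which 11374 could be tied to a pig gene symbol. Each symbol had 1 entry, so no choice between entries was needed. The symbols were picked with their values in both libraries known, so the difference between the libraries in these genes is a description and supports nothing.

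Longissimus dorsi muscle came from crossbred barrows, castrated males of Duroc boars and Yorkshire-Landrace sows, weighing 79.0 ± 1.5 kg (the labels do not say what this spread is) and drawn from 8 litters. Of 16 pigs, 8 lived at a constant 22 °C as controls and 8 at a constant 30 °C as the heat stress arm, for 21 days. Each arm has 1 messenger RNA library, and the labels do not say whether it pools pigs or comes from 1 pig. With 1 library per group there is no spread between replicates and no test, and temperature, pig, handling and library cannot be told apart.

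Muscle burns glucose or fatty acids, and these 3 proteins sit where that choice is made. PDK4 is a mitochondrial kinase that phosphorylates pyruvate dehydrogenase and so closes the entry of pyruvate into oxidation. CPT1A is the isoform of carnitine palmitoyltransferase 1 best known from liver. It moves long-chain fatty acids onto carnitine at the outer mitochondrial membrane, the step that malonyl-CoA inhibits. UCP3 is an inner membrane carrier of skeletal muscle, and what it carries is debated. In mammals the genes for all 3 are known targets of the fatty acid receptors of the PPAR family, and PDK4 is also a known target of FOXO factors and of the glucocorticoid receptor.

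Values are RPKM, reads scaled by gene length and library total, as the authors deposited them. The library totals recovered from the values were 23608242 reads at 22 °C (control) and 22863584 reads at 30 °C (heat). Pairs of at most 300 whole reads matched the RPKM ratio, to within the rounding of the values, for 96.1% of the 13134 low entries (mean RPKM under 5, above 0 in both libraries), and for 0.023% of them when the ratio of totals was set slightly wrong. The reads behind a gene are the smallest whole numbers that fit its values and give it a whole length, so they are minimum reads. A whole length came out for 99.2% of the entries with whole reads. For the rest, LDHA and AMPD1 among them, the smallest pair of reads alone was used. Each RPKM ratio, heat over control, carries a 95% Clopper-Pearson interval from these reads, which covers counting error only. The log2 ratio is log2((heat RPKM + 1)/(control RPKM + 1)), whose pseudocount understates differences of low genes. Over the 13191 entries whose mean RPKM reached 1 its median was 0.05, with 95% of genes between -0.57 and 0.66.

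All 3 genes stood higher in the heat library, PDK4 by far the most. PDK4 was at 33.8 RPKM at 22 °C and 86.1 RPKM at 30 °C, and the ratio was 2.54 (counting interval 2.39 to 2.71; log2 ratio 1.32). UCP3 was at 20.6 RPKM at 22 °C and 28.7 RPKM at 30 °C, a ratio of 1.39 (1.30 to 1.48; log2 ratio 0.45). CPT1A was at 8.44 and 11.4 RPKM, a ratio of 1.35 (1.18 to 1.54; log2 ratio 0.39). The order of levels per length, PDK4 above UCP3 above CPT1A, was the same in both libraries, and the counting intervals of neighbouring levels did not overlap. These differences rest on at least 1419 control and 3497 heat reads for PDK4, 1657 and 2228 for UCP3, and 380 and 496 for CPT1A. The gene lengths that go with these reads were 1777 bp for PDK4, 3400 bp for UCP3 and 1907 bp for CPT1A, or a multiple of these.

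**Figure D1:**
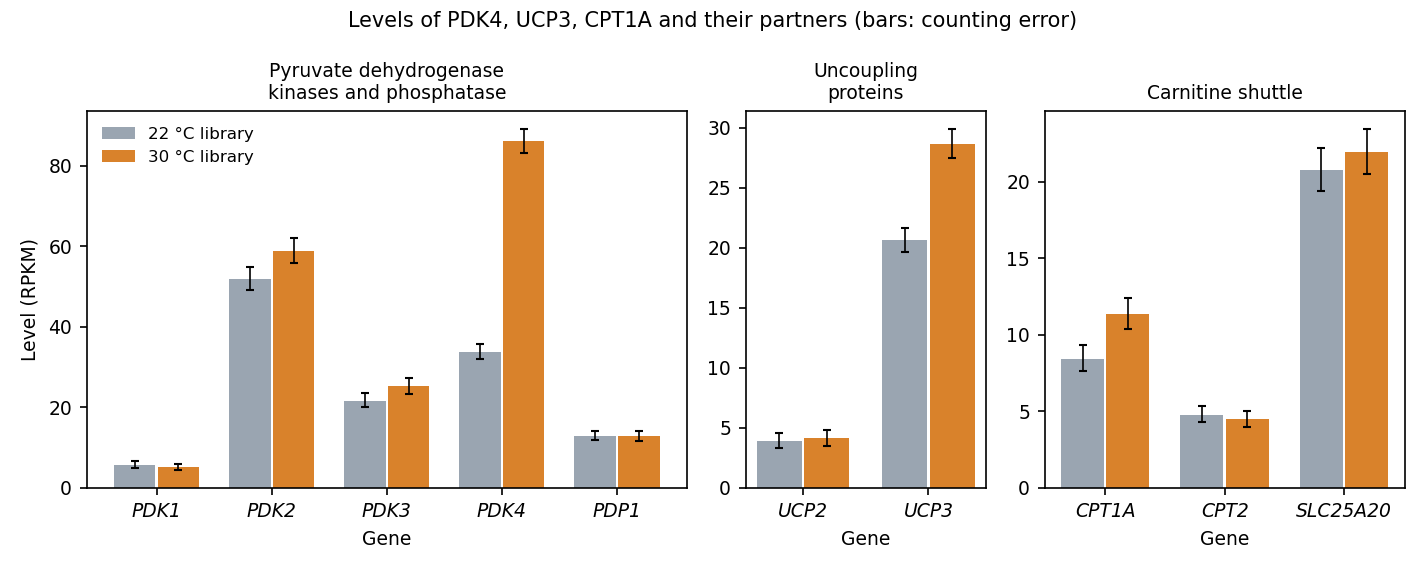
RPKM of the 3 genes and their closest partners in the 22 °C library (grey) and the 30 °C library (orange), 1 library each, with bars for the 95% Poisson interval of the minimum reads. PDK4 went from below PDK2 (33.8 against 51.9 RPKM) to above it (86.1 against 58.9 RPKM), while UCP3 and CPT1A differed less.

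Among these 13191 entries, 0.629% were at least 2-fold higher in the heat library and 0.584% at least 2-fold lower, on the log2(RPKM + 1) scale. PDK4 was the only one of the 3 past 2-fold, and also the only one past 1.5-fold, which 3.44% of genes passed upward. Its log2 ratio ranked 28 of 13191 entries, 4 of the 6990 entries with a symbol, and 2 of the 1171 entries whose mean RPKM lay within 2-fold of its own. UCP3 ranked 855 of 13191 and 49 of the 2360 entries near its own level. CPT1A ranked 1161 of 13191 and 241 of 4160 near its level, so many genes of like level differed as much. The counting interval lay above 1 for all 3 genes, as it did for 20.4% of the 13173 genes that have one, and it lay below 1 for 10.5%. Since the 3 genes were chosen on this contrast, these ranks and shares only place them.

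**Figure D2:**
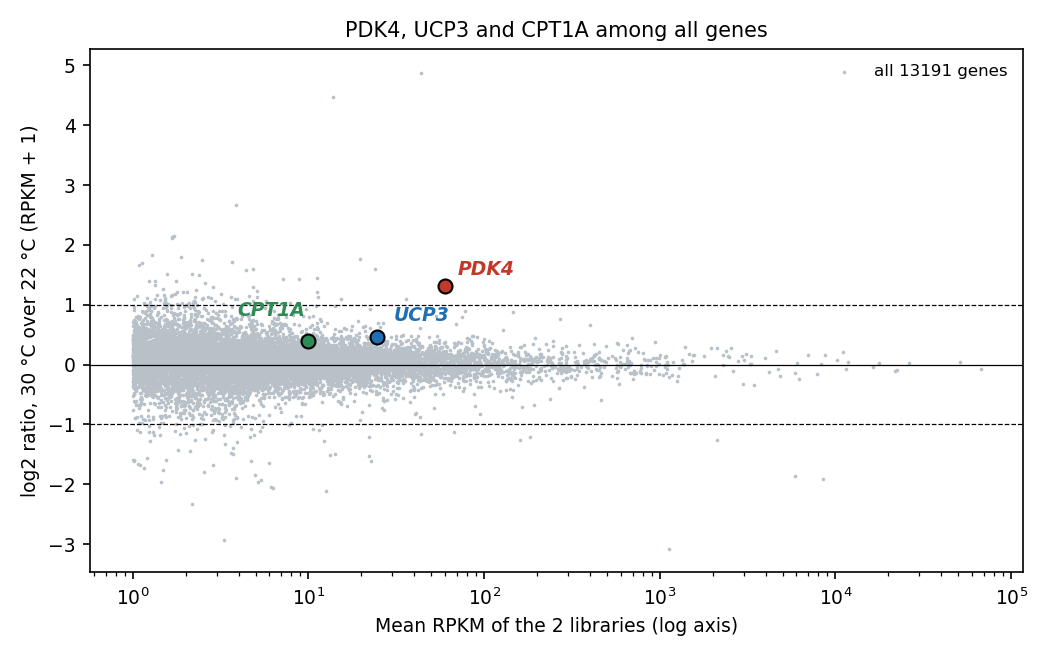
The log2 ratio of 30 °C over 22 °C (RPKM + 1) against the mean RPKM of the 2 libraries on a log axis, for all 13191 entries with a mean of at least 1, with dashed lines at 2-fold. PDK4 (1.32) lies above all but 1 of the entries within 2-fold of its level, while UCP3 (0.45) and CPT1A (0.39) lie in the upper part of the cloud.

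Set against each other, the 3 genes did not keep 1 ratio. The PDK4 ratio was 1.83 times that of UCP3 (counting interval 1.68 to 2.00) and 1.89 times that of CPT1A (1.63 to 2.19). UCP3 and CPT1A did not differ beyond counting error, with a ratio of their ratios of 1.03 (0.888 to 1.19), an interval that still allows either to be higher. Thus PDK4 stood at 1.64 times the RPKM of UCP3 at 22 °C and at 3.00 times at 30 °C, whereas UCP3 stood at 2.45 and 2.52 times the RPKM of CPT1A.

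Pyruvate dehydrogenase is held by 4 kinases and opened by phosphatases, and PDK4 differed more between the libraries than any of the other kinases. PDK2, the kinase with the highest level in the control library, was at 51.9 and 58.9 RPKM, a ratio of 1.13 (1.05 to 1.22). PDK3 was at 21.7 and 25.2 RPKM, a ratio of 1.16 (1.04 to 1.30). PDK1, a kinase known as a target of the hypoxia factor, was the lowest of the 4, at 5.79 and 5.08 RPKM, a ratio of 0.877 whose interval holds 1 (0.710 to 1.08). The PDK4 ratio was 2.24 times that of PDK2 (2.04 to 2.47), 2.19 times that of PDK3 (1.93 to 2.48) and 2.90 times that of PDK1 (2.34 to 3.59). PDK4 made up 29.9% of the summed RPKM of the 4 kinases at 22 °C and 49.1% at 30 °C. The share of PDK2 was 45.8% and 33.6%, that of PDK3 19.1% and 14.4%, and that of PDK1 5.12% and 2.90%.

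The phosphatase PDP1, which removes what the kinases add, was at 13.0 and 12.8 RPKM, a ratio of 0.985 (0.866 to 1.12). The phosphatase PDP2 is not analysed here. Summed kinase RPKM was 8.71 times that of PDP1 at 22 °C and 13.7 times at 30 °C. Without PDK4 the same quotient was 6.11 and 6.97. The enzyme itself was near even: PDHA1, the subunit that the kinases phosphorylate, was at 229 and 227 RPKM (ratio 0.991, 0.944 to 1.04) and its partner PDHB at 61.6 and 61.96 RPKM (1.01, 0.951 to 1.06). The core acetyltransferase DLAT (19.1 and 18.5 RPKM), the dehydrogenase DLD (61.02 and 56.04 RPKM) and the binding protein PDHX (19.8 and 19.02 RPKM) also had intervals that hold 1. Only PDPR, the regulatory subunit of the phosphatase, had an interval clear of 1, at 3.96 and 5.95 RPKM (ratio 1.50, 1.17 to 1.93).

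**Figure D3:**
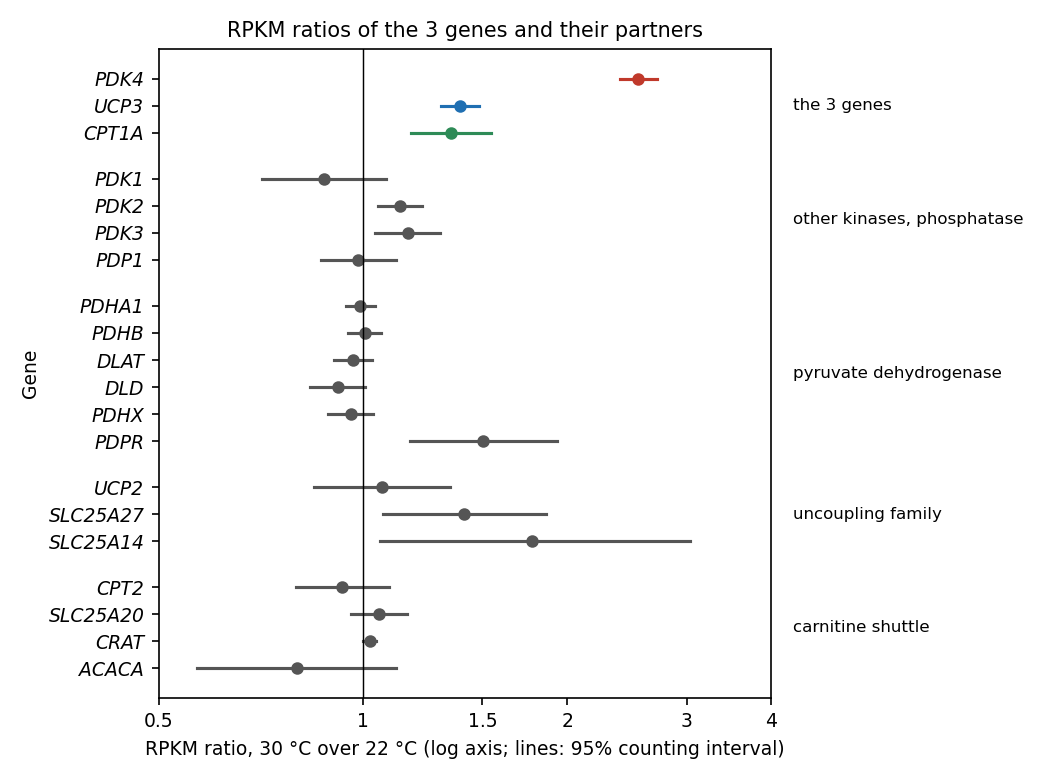
RPKM ratios of 30 °C over 22 °C on a log axis, with 95% counting intervals as lines, for PDK4, UCP3, CPT1A and the measured genes around them. The PDK4 interval (2.39 to 2.71) lies above those of the other kinases, and the UCP3 (1.30 to 1.48) and CPT1A (1.18 to 1.54) intervals overlap each other.

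UCP3 was the more abundant of the measured pair of uncoupling proteins named as such. UCP2, its relative found in many tissues, was at 3.89 and 4.15 RPKM, a ratio of 1.07 (0.848 to 1.34). UCP3 thus stood at 5.31 times the RPKM of UCP2 at 22 °C and at 6.91 times at 30 °C, and its ratio was 1.30 times that of UCP2 (1.03 to 1.64). UCP1, the uncoupling protein of brown fat, is not analysed here. Of the 2 related carriers SLC25A27 (UCP4) and SLC25A14 (UCP5), known mainly from brain, SLC25A27 was at 2.12 and 2.99 RPKM (ratio 1.41, 1.07 to 1.86) and SLC25A14 at 1.20 and 2.14 RPKM (1.78, 1.06 to 3.03), the latter on only 25 and 43 minimum reads. The adenine nucleotide carrier SLC25A4, the abundant carrier of the same family in muscle, was at 604 and 597 RPKM, 29.2 times and 20.8 times the RPKM of UCP3. Over the list of uncoupling proteins, nucleotide carriers and acyl-CoA thioesterases, 5 of 7 measured genes had a log2 ratio above 0 and the median was 0.07, against 0.05 for all genes, with SLC25A5 lowest at -0.10 and SLC25A4 next at -0.02.

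CPT1A, which was chosen with its ratio known, had a higher RPKM ratio than the measured later steps of its own shuttle. The inner membrane partner CPT2 was at 4.79 and 4.47 RPKM, a ratio of 0.933 (0.797 to 1.09), and the CPT1A ratio was 1.45 times as large (1.18 to 1.77). SLC25A20, which carries acylcarnitine across the inner membrane, was at 20.7 and 21.9 RPKM (ratio 1.06, 0.961 to 1.16), with CPT1A 1.28 times as large in ratio (1.08 to 1.50). CRAT, which handles short acyl groups, was at 264 and 269.5 RPKM (ratio 1.02, 1.0003 to 1.05), with CPT1A 1.32 times as large (1.15 to 1.51). CPT1A went from 1.76 to 2.55 times the RPKM of CPT2. CPT1B, the main muscle isoform, is not analysed here, so the share of CPT1A in all of CPT1 is not given. CPT1C, an isoform of brain, was at 0.152 and 0.314 RPKM, with 5 and 10 minimum reads, and its interval holds 1 (0.643 to 7.70). ACACA, which makes malonyl-CoA, the inhibitor of CPT1, was low at 1.60 and 1.28 RPKM (ratio 0.799, 0.569 to 1.12), while BBOX1, an enzyme of carnitine synthesis, was listed at 0 in both libraries. Of the 4 measured shuttle genes other than CPT1A, 2 had a log2 ratio above 0, which became 1 after centring on the median of all genes.

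On the log2(RPKM + 1) scale, no measured gene of the wider pathway reached PDK4. By plain RPKM ratio the AMP deaminase AMPD3 stood above it, at 2.95 (2.16 to 4.07) against 2.54 (2.39 to 2.71), with overlapping intervals. AMPD3 rests on at least 56 control and 160 heat reads. Of 161 genes listed in 13 groups around these 3, 116 were matched and 100 reached a mean RPKM of 1. Of these 100, 52% had a log2 ratio above 0, against 58.8% of all genes, and their median was 0.01 against 0.05. On the log2(RPKM + 1) scale, 2 passed 1.5-fold upward (2%, against 3.44% of all genes), and downward 1 did, against 2.37% of all genes. By plain RPKM ratio PDPR (1.50), SLC25A14 (1.78) and LPIN1 (1.52) passed 1.5-fold upward as well. The share of all genes past 1.5-fold by plain ratio was not counted, so the 3.44% cannot be set beside them. The counting interval lay above 1 for 24% and below 1 for 17%, against 20.4% and 10.5% of all genes. Highly expressed genes have narrow intervals, and the part of expression level in these shares was not tested.

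Transcripts of beta oxidation enzymes, downstream of CPT1A, were divided between the directions. Of 16 measured genes of this list, 8 had a log2 ratio above 0 and 8 below, against 58.8% of all genes above 0, with a median of 0.00. The counting interval lay above 1 for 3 of them and below 1 for 3, against 20.4% and 10.5% of all genes. The extremes were ACAD10 (0.26) and the electron acceptor reductase ETFDH (0.20) on the upper side, and ETFA (-0.16), a subunit of the electron carrier flavoprotein, and the isomerase ECI2 (-0.15) on the lower. Every one of the 16 lay below UCP3 and CPT1A in log2 ratio. Upstream, 4 of 7 measured genes of fatty acid uptake and activation were above 0 (median 0.07), from the transporter SLC27A4 (0.27) and the lipoprotein receptor VLDLR (0.20) to the acyl-CoA synthetases ACSL4 (-0.05) and ACSL3 (-0.15).

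Of 3 measured lipolysis genes, ABHD5, the activator of the triglyceride lipase, had a log2 ratio of 0.33, the hormone-sensitive lipase LIPE -0.19, and G0S2, an inhibitor of that same triglyceride lipase, -0.68, from 6.15 to 3.47 RPKM. G0S2 was the only one of the 100 at least 1.5-fold lower. Of 7 genes of ketone and acetyl-CoA handling 3 were above 0 (median -0.08), with the acetyl-CoA synthetase ACSS1 (0.17) highest, and ACLY, which makes cytosolic acetyl-CoA (-0.40), and ACSS2 (-0.11) lowest.

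On the glucose side, PFKFB3, which makes the activator of phosphofructokinase, had a log2 ratio of 1.01 and so passed 2-fold as PDK4 did. The other 10 of 11 measured genes of glucose uptake and commitment ran from TBC1D4, a brake on glucose transporter traffic (0.20), to GYS1, glycogen synthase (-0.21), and SLC2A4, the insulin-dependent glucose transporter (-0.29), and the median of the 11 was 0.01. Around pyruvate, MPC2, a subunit of the mitochondrial pyruvate carrier, was at 47.5 and 49.4 RPKM. Lower in the heat library were SLC16A3, which exports lactate (41.4 and 27.8 RPKM, log2 ratio -0.56), PC, which carboxylates pyruvate (26.1 and 20.3 RPKM, -0.35), and LDHA, which makes lactate (5124 and 4489 RPKM, -0.19), each with an interval below 1.

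**Figure D4:**
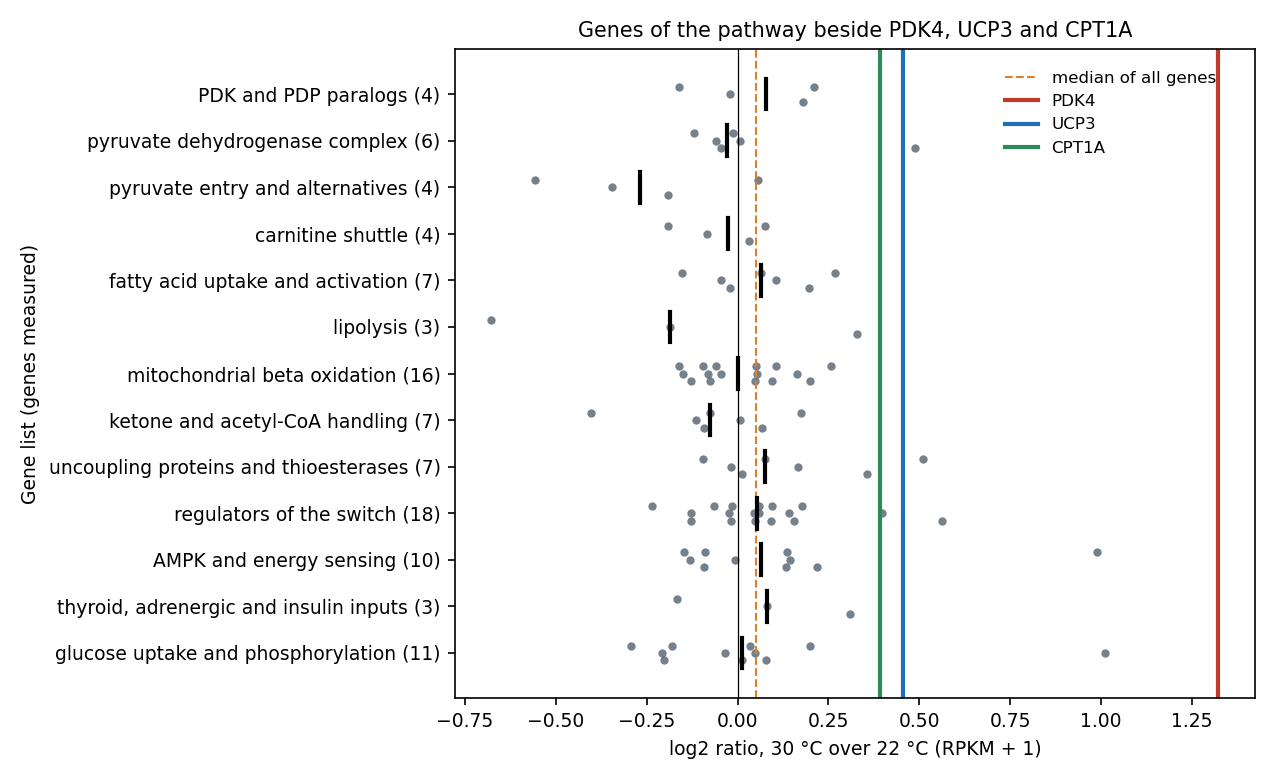
The log2 ratio of 30 °C over 22 °C (RPKM + 1) of each measured gene in the 13 pathway lists (dots; black bars mark list medians), with lines for PDK4, UCP3, CPT1A and the median of all genes (0.05). On this scale no dot reaches PDK4 (1.32), the nearest being PFKFB3 (1.01) and AMPD3 (0.99).

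Among receptors and factors known to act on genes of this kind, the counting intervals of the FOXO genes lay above 1. Those of the PPARs and of the glucocorticoid receptor gene NR3C1 held 1. These intervals are set against 1 and not against the median of all genes, whose log2 ratio was 0.06 with no pseudocount. The lower limit for FOXO1 (1.01) lies close to 1. The intervals of FOXO1, FOXO3 and FOXO4 overlap those of PPARA and NR3C1, so these genes are not told apart. The PPARD interval overlaps that of FOXO1 and, on counting error alone, lies below those of FOXO3 and FOXO4. Minimum control reads were 758 for FOXO1 and 2464 for FOXO4, against 162 for PPARA and 281 for NR3C1. Any part of these factors in the 3 genes was not tested. PPARA was at 3.56 and 3.86 RPKM (ratio 1.08, 0.869 to 1.35) and PPARD, the most abundant of the 3 PPARs, at 6.38 and 5.76 RPKM (0.902, 0.793 to 1.03). FOXO3 was at 10.5 and 14.1 RPKM (ratio 1.35, 1.21 to 1.50), close to the ratios of UCP3 and CPT1A, FOXO1 at 5.97 and 6.69 RPKM (1.12, 1.01 to 1.24), and FOXO4, the FOXO gene with the highest level, at 58.3 and 65.02 RPKM (1.12, 1.06 to 1.18). NR3C1, the glucocorticoid receptor, was at 15.96 and 16.5 RPKM (1.04, 0.875 to 1.23). The choice to name PPARA, FOXO1, FOXO4 and NR3C1 was made with their values in view, since they are regulators of the kinds named above. Of 18 measured regulators 11 were above 0 and 9 above the median of all genes, and the interval lay above 1 for 5 and below 1 for 0, against 20.4% and 10.5% of all genes. LPIN1, a phosphatidate phosphatase and PPAR coactivator, was highest (0.56, from 11.9 to 18.0 RPKM), and NRIP1, a corepressor (-0.24), lowest. The coactivator PPARGC1A is not analysed here.

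Among 10 genes of AMP-activated kinase and energy sensing, 5 were above 0. The AMP deaminase AMPD3 was highest at 1.02 and 3.01 RPKM (0.99), followed by the muscle deaminase AMPD1 (0.22), while the kinase subunits PRKAG3 (-0.13) and PRKAG2 (-0.15) were lowest. Of the hormone inputs only 3 of 14 listed genes were measured. The insulin receptor INSR was at 0.31, its substrate IRS1 at 0.08 and the kinase AKT2 at -0.17 in log2 ratio.

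The muscle label was checked against 12 listed skeletal muscle markers, of which 7 were matched, led by skeletal actin, and these summed to 123287 RPKM at 22 °C and 119185 RPKM at 30 °C. Fibre and cell type markers differed between the libraries too. All 4 measured slow fibre markers, of 9 listed, had a log2 ratio above 0, and their sum was 5403 and 6385 RPKM. Of all genes 58.8% were above 0, the share beside which this count and those below stand. All 5 measured fast fibre markers, of 11 listed, were below 0, summing to 52852 and 49292 RPKM. The calcium buffer PVALB (-1.26) stood apart, since the others lay between -0.13 and -0.09. Of 4 measured adipocyte markers, of 9 listed, 3 were below 0, the sum was 25.4 and 17.01 RPKM, and RETN was listed at 0 in both libraries. Macrophage markers summed to 10.9 and 14.4 RPKM (2 of 5 above 0), endothelial markers to 127 and 143 RPKM (2 of 4), and fibroblast markers to 901 and 817 RPKM (1 of 5). Most of the endothelial sum came from PECAM1 (110.8 and 126.9 RPKM), while TEK was higher and KDR and TIE1 lower in the heat library. Red blood cell markers summed to 89.5 and 113 RPKM, nearly all from HBB. The part of fibre type or cell makeup in the differences of PDK4, UCP3 and CPT1A was not tested, and in bulk muscle more cells of a type and more RNA per cell cannot be told apart.

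In the RefSeq annotation of Sscrofa11.1, which is not the build named by the submitters, the spans of ASB4 and of a long noncoding RNA, LOC106504960, overlap that of PDK4. Strand is not described as marked in these libraries, so reads of overlapping genes cannot be told apart. ASB4, a ubiquitin ligase adaptor, was at 16.7 and 20.9 RPKM, a log2 ratio of 0.31, under that of PDK4. The noncoding RNA was not matched to an entry, so its level is not given and its part in the PDK4 reads was not tested. No annotated gene overlapped UCP3 or CPT1A there.

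With 2 libraries, a pattern is only a level and a ratio, so likeness was taken as the smallest difference of log2 ratios among named genes whose mean RPKM lay within 2-fold. Nearest to PDK4 were ART3 (22.4 and 49.1 RPKM), CLU (54.3 and 94.5 RPKM) and ATF3 (52.7 and 84.7 RPKM), at distances of 0.22, 0.53 and 0.65. The RPKM ratio of ART3 was 2.20 (1.93 to 2.51), and this interval overlaps that of PDK4 (2.39 to 2.71). The intervals of CLU (1.48 to 2.06) and ATF3 (1.49 to 1.73) lie below it. Nearest to UCP3 were ABHD4 (24.8 and 34.4 RPKM), NUDT14 (14.2 and 19.8 RPKM) and PTPN4 (14.4 and 20.2 RPKM), all within 0.01. CPT1A had SLC7A7 (4.96 and 6.81 RPKM), ATE1 (6.75 and 9.16 RPKM) and GNAI3 (4.85 and 6.68 RPKM) nearest, all within 0.01 as well.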

How the data were processed

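The deposited table holds RPKM values as the authors computed them, 1 column per library. The submitters' processing notes name the build Sscrofa10.2 and, without saying what each did, Cufflinks 1.3.0, TopHat 1.4.0 and Bowtie. The counting tool, gene lengths and treatment of reads with several matches are not given in the sources used here, so paralogs could share reads. Per the labels' protocols, libraries used 3 µg of RNA, poly(A) selection and 10 PCR cycles. Such reads carry no molecular identifiers, so intervals cover counting error only.

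The 3 genes and all gene lists were chosen with earlier results of these data known. From the RPKM of low genes the value of 1 read was found, as the ratio most frequent between the libraries (totals 1.03, control over heat), and the totals as the largest at which most gene lengths came out whole (71.1% of 6217 within 0.02 bp). A read on 1 kb was worth 0.0424 RPKM at 22 °C and 0.0437 RPKM at 30 °C. The steps were tested on simulated reads. Genes were matched by exact symbol; 45 of 161 listed genes were not matched and are not analysed here. Genes named are the 3, all measured kinases, phosphatases, dehydrogenase subunits, shuttle genes and UCP2, the 2 highest and 2 lowest of each other list, any past 1.5-fold, and the 3 most alike per gene. A gene that the rule names is not reported here. HBB, PVALB, RETN, ASB4, PPARA, FOXO1, FOXO4, NR3C1, ACADVL, ACADL, ACADM, PRKAB2 and RXRG are named outside it, after their values were seen. No test was possible, so sizes are given with counting intervals. Python 3.11.15, numpy 2.4.6, pandas 2.3.3 and scipy 1.17.1 were used.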

Additional observations from a re-analysis of the deposited data

How the results depend on the processing

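No paired analysis was possible because only 1 library stands for each temperature, and so no replicate could be left out either. PDK4 ran from 1.23 to 1.37 in log2 ratio over 7 alternatives, UCP3 from 0.39 to 0.50 and CPT1A from 0.28 to 0.43, all above 0. The lowest PDK4 value, 1.23, came with a pseudocount of 5. Summing the entries of a symbol changed nothing, since each of the 3 has 1 entry. The counts of 83 genes at least 2-fold higher and 77 lower became 340 and 212 with no pseudocount, 290 and 193 when it was 0.1, 7 and 20 when it was 5, 17 and 26 at a mean RPKM of at least 5, and 10 and 10 among genes with a symbol, an alternative chosen after seeing the data. Rescalings moved the median of all genes by at most 0.05. List members above 0 became 1 of the pyruvate dehydrogenase complex and 1 of the carnitine shuttle (from 2 each) with centring and with trimmed mean rescaling, 3 of glucose uptake (from 6) with centring, and 0 around pyruvate (from 1) with the trimmed mean. At a mean RPKM of at least 5 they were 1 of the dehydrogenase complex, 0 of lipolysis (from 1), 2 of the uncoupling list (from 5), 7 of the regulators (from 11), 2 of energy sensing (from 5) and 1 of the hormone inputs (from 2), since fewer genes remain there. Otherwise the cause was not tested. Depth limits low genes most.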

Other observations

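ACADVL, the dehydrogenase that opens beta oxidation of the long-chain fatty acids that CPT1A admits, was singled out by its level. It stood at 0.156 RPKM at 22 °C and 0.402 RPKM at 30 °C, on 6 and 15 minimum reads, and so fell under the mean RPKM of 1. The interval of its ratio holds 1 (0.946 to 8.12). Whether so low a level is that of the muscle or comes from the annotation or read mapping was not tested. The dehydrogenases of the same family ACADL (22.5 and 25.3 RPKM) and ACADM (71.4 and 66.8 RPKM) were far above it. The gene lengths implied by the values were short for some pathway genes, 184 bp for PRKAB2, 267 bp for NRIP1 and 404 bp for RXRG, against 1777 bp for PDK4.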
